A study of Mus musculus and Homo sapiens with 8 samples.

Results

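Wild-type p53 and an empty vector were compared in H1299 cells, a human non-small-cell lung cancer line that makes no p53 protein of its own. The comparison uses 2 of the 8 arrays of the study, the H1299 array labelled vector control and the H1299 array labelled p53 WT. A gene entered the comparison when at least 1 of its probes had a detection p-value, the chance of such a signal from negative control beads, under 0.01 on either array, and its probe of highest mean signal then stood for it. Of 34667 named genes on the human array, 11751 met this rule, and 9732 of them were above background on both arrays by that probe. Another 1367 were above background with vector only and 652 with p53 wild type only. The 157 genes just inside the rule, with a lowest detection p of 0.0091, had median signals of 134.6 with vector and 124.3 with p53 wild type. The 114 genes just outside, at a lowest detection p of 0.0104, had median signals of 125 and 138.4.

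The study measured gene expression on Illumina bead arrays in mouse thymus and in transfected H1299 cells, under a title about the ubiquitin ligase TRAF6 and p53. Per the labels, the H1299 cells were grown in high-glucose DMEM, transfected with vector, p53 wild type or p53 K24R, a form in which a lysine is replaced by arginine, and RNA was taken with Trizol. There was 1 array a group, so all comparisons below are values without a test, and the number of arrays limits the precision. The time after transfection, the vector's name, the share of cells transfected and any irradiation of the H1299 cells are not given in the sources used here, and the treatment text attached to these samples speaks of mice.

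p53 is a transcription factor that binds a DNA element in its target genes and activates them. Its targets arrest the cell cycle, repair DNA, promote cell death, restrain growth metabolism and signal to neighbouring cells, and one of them, MDM2, marks p53 for destruction. Through the CDK inhibitor p21, the product of CDKN1A, p53 also leads to repression of cell cycle genes by the RB family and the DREAM complex. Because H1299 lacks the protein, the line is a common host for reintroduced p53.

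Signals below are mean bead brightness on the scanner's linear scale, as deposited. Levels called log2 are the same signals after background correction and normalization, and differences and folds are p53 wild type against vector on that scale. Background correction removes a signal that every probe carries, so for dim genes a fold is larger than the ratio of the printed signals, while for bright genes the 2 are close. An interval after a fold is the 95% interval from the error between beads of 1 array and leaves out the spread between cultures. Where a gene was not above background on 1 array, that array was set to the lowest level above background and the fold is written "at least". Such a bound can place a gene past 2-fold but cannot show that it stayed under, so a gene below 2-fold by its bound is undecided. A gene at least 2-fold apart by its fold or bound is said to be called. Median signals were 114.7 and 117.1, the typical bead standard error was 3.99% and 3.97% of the signal, and 13674 and 12716 probes were above background with vector and p53 wild type. The lowest level above background was log2 5.34 with vector and 5.51 with p53 wild type, and the part of this gap in the lower calls was not tested.

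The line was checked by its markers, and those of mesenchymal-like tumour lines were far above background on both arrays. VIM, the intermediate filament of mesenchymal cells, gave signals of 17835 and 13267 for vector and p53 wild type, and AXL, a receptor tyrosine kinase, gave 9223 and 9283. The epithelial keratin KRT8 was bright as well, at 1537 and 2523. Of 23 line and lung markers, 11 were above background and none was called at 2-fold. NKX2-1, SFTPC and SCGB1A1 of lung epithelium and NCAM1, CHGA, SYP and INSM1 of neuroendocrine cells were not above background, nor were KRT7, KRT19, EPCAM and CDH1.

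Across all genes, 196 were at least 2-fold higher with p53 wild type than with vector (1.67% of 11751) and 153 were at least 2-fold lower (1.3%). Of the higher genes, 28 were past 4-fold and 7 past 8-fold. Of the 129 lower genes above background on both arrays, 0 were past 4-fold, and the other 24 have only a bound. Among the 9736 genes with any probe above background on both arrays, 144 were higher (1.48%) and 129 were lower (1.32%). The vector and p53 wild-type arrays correlated at 0.974 across genes, which are not independent replicates. Without background correction 59 genes were 2-fold higher and 17 lower, and in the authors' own scaled values 49 were higher and 20 lower, all of them among the 196 and 153. Nearest the limit, ASTN2 lay just outside the higher group and LOC100134134 just inside, while FADD lay just outside the lower group and CCDC45 just inside.

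**Figure D1:**
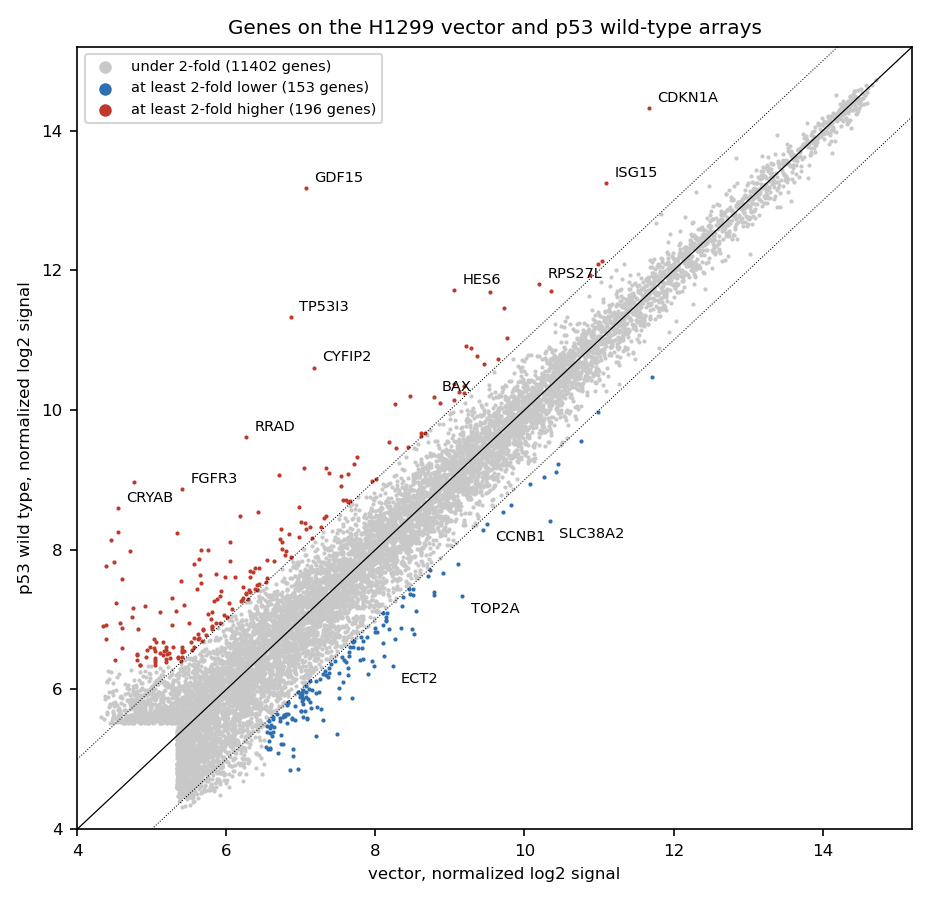
Normalized log2 signal of 11751 genes with vector (horizontal axis) and with p53 wild type (vertical axis), 1 array each. The solid line marks equal signal and the dotted lines 2-fold; 196 genes in red are at least 2-fold higher, reaching 68.9-fold for GDF15, and 153 in blue are at least 2-fold lower. Genes not above background on 1 array are plotted at their measured level.

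The calls were more frequent among dim genes. Below a mean log2 level of 7, 116 of 5083 genes were higher and 92 were lower, and a typical gene there had a bead interval of ± 0.47. Between 7 and 10, 63 of 4435 were higher and 58 lower, with ± 0.21. Above 10, 17 of 2233 were higher and 3 were lower, with ± 0.14. At the bright end the higher calls included CDKN1A, GDF15 and ISG15. The 10 brightest genes, which were translation and ubiquitin genes such as RPS12, EEF1A1, RPL41 and UBB and pseudogene entries of such genes, differed by at most 0.11. Of the called genes, 76 were read by several probes above background, and in 3 of them, AMD1, PCBP4 and SMPD1, the probes differed in direction.

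Known p53 targets made up 5 lists by role, with 158 genes on the array and 103 that met the detection rule. Of these 103, 24 were at least 2-fold higher and 0 were 2-fold lower, beside 1.67% and 1.3% of all genes. Their median difference was 0.46, beside 0 for all genes. Of the 103, 77 (74.8%) lay above 0 and 23 (22.3%) below, beside 48.0% and 47.5% of all genes. The other 55 were not above background on either array. Among the 83 targets above background on both arrays, 16 were 2-fold higher, beside 1.48% of all such genes. Without background correction 15 were higher, and in the authors' scaled values 11 were.

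**Figure D2:**
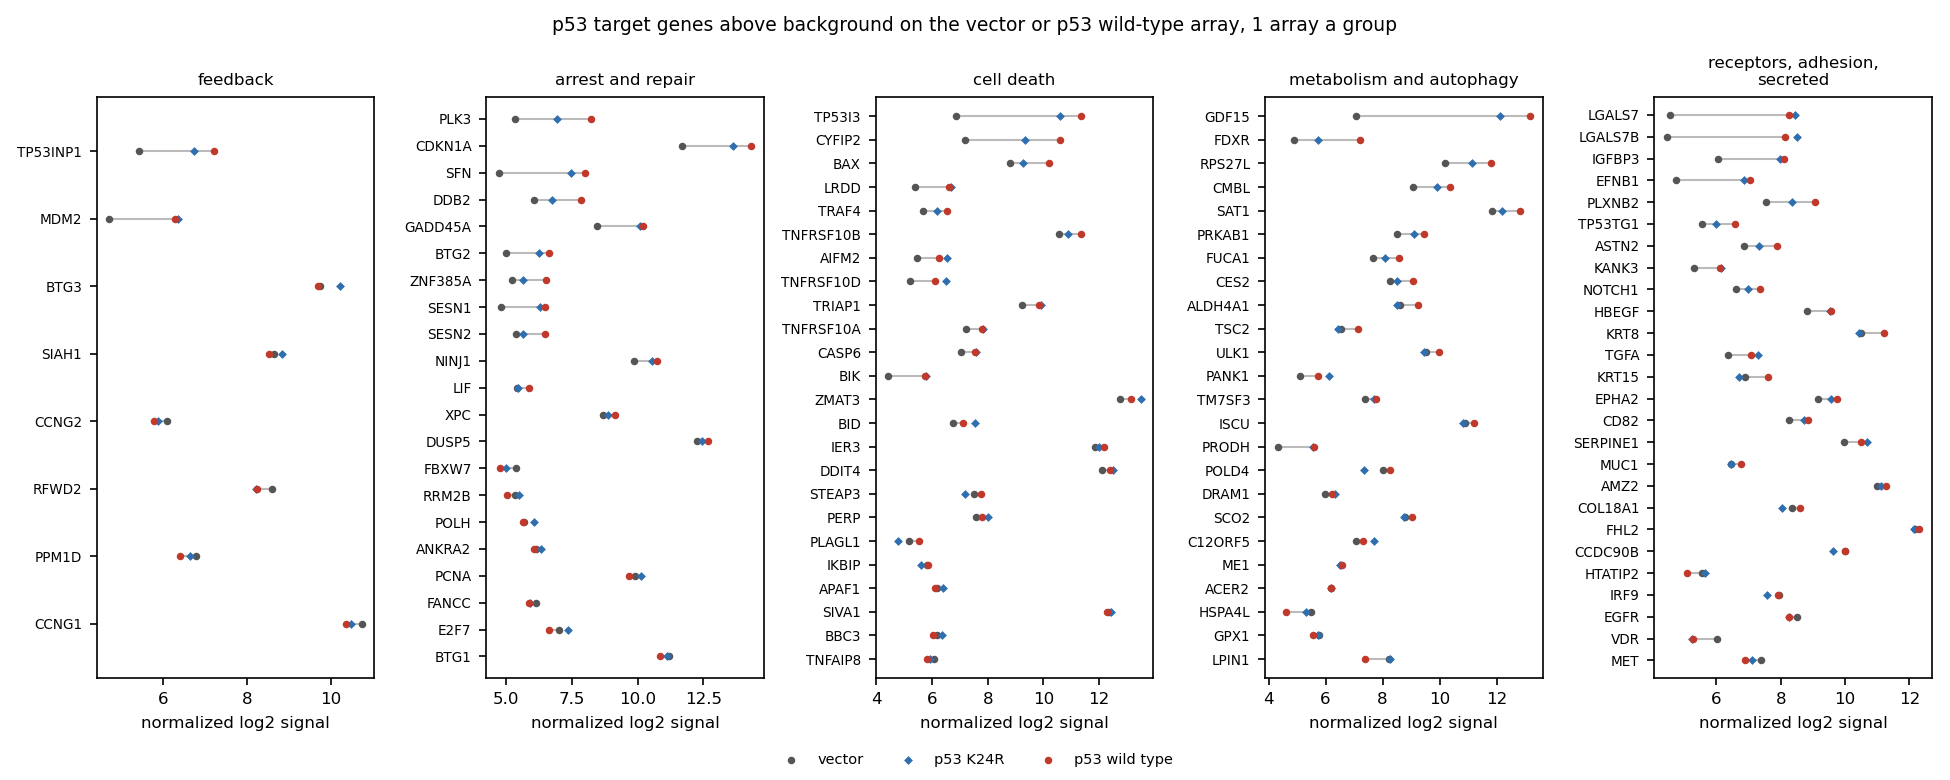
Normalized log2 signal of 103 p53 targets with vector, p53 K24R and p53 wild type, 1 array each, in 5 panels by role and ordered by the difference between p53 wild type and vector. Grey lines join vector to p53 wild type; the longest lines belong to GDF15, TP53I3, CYFIP2 and the dim-with-vector genes LGALS7 and LGALS7B, and 24 genes are at least 2-fold higher.

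The feedback genes of p53 were for the most part not higher. Of 8 measured, 1 was 2-fold higher (12.5%, beside 1.67% of all genes), 6 lay below 0, and the median was −0.23. TP53INP1, which encodes a p53-binding nuclear protein active in cell death and autophagy, had signals of 137 with vector, 233.6 with p53 wild type and 201.7 with K24R. Both p53 arrays were above the vector array, and the fold for p53 wild type was 3.43 (2.67 to 4.42), with at least 1.96 by a second probe. MDM2, the ubiquitin ligase that degrades p53, was read by 4 probes, of which 1 was above background. That probe gave 115.1 with vector, 167.6 with p53 wild type and 176.8 with K24R. It was above background with p53 wild type and not with vector, at least 1.92-fold higher by the bound and 1.56 higher on the log2 scale by the measured levels, so whether it passed 2-fold is undecided. PPM1D, the phosphatase that turns off damage signalling, had signals of 209.2 and 174, and CCNG1, cyclin G1, had 1803 and 1425. RFWD2, the ubiquitin ligase now named COP1, SIAH1 and BTG3 lay at −0.36, −0.13 and −0.06. TP73, MDM4 and RCHY1 of the same list were not above background.

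Arrest and repair targets held 9 of the 24 higher genes among 21 measured (42.9%, beside 1.67% of all genes), with a median of 0.48. CDKN1A, which encodes p21, the inhibitor of cyclin-dependent kinases, was high on both p53 arrays. Its signal was 3370 ± 93 (24 beads) with vector, 21027 ± 588 (35 beads) with p53 wild type and 12992 with K24R. K24R lay between the other arrays, and p53 wild type was 6.28-fold higher than vector (5.80 to 6.79). A second, dimmer CDKN1A probe gave 122.3, 638 and 528.1 on the same arrays, at least 13.7-fold higher with p53 wild type. PLK3, a polo-like kinase of the stress response, had 134.2 with vector, 385 ± 48 (12 beads) with p53 wild type and 217.1 with K24R. It was 7.44-fold higher, with a wide bead interval of 4.73 to 11.7. SFN, the 14-3-3 sigma protein that holds the mitotic kinase outside the nucleus, was not above background with vector, at a signal of 114.8. It gave 335.5 with p53 wild type and 273.5 with K24R, at least 6.24-fold higher than vector.

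DDB2, which finds ultraviolet lesions for nucleotide excision repair, gave 162.6, 311.6 and 201.7 with vector, p53 wild type and K24R. The fold was 3.44 (2.86 to 4.13), and K24R was nearer to vector. GADD45A, a stress protein that binds PCNA and CDK1, gave 457.7, 1275 and 1156. Here both p53 arrays were close to each other, and the fold for p53 wild type was 3.32 (2.91 to 3.79). The antiproliferative BTG2, at least 2.42-fold higher, ZNF385A, at least 2.28-fold, and the sestrins SESN1, at least 2.23-fold, and SESN2, 2.16-fold, were dim on all arrays, with p53 wild-type signals of 177 to 185.8. NINJ1 was 1.86-fold and XPC, the lesion sensor of nucleotide excision repair, 1.37-fold higher. PCNA, the replication clamp, had signals of 1048 and 915.1, and RRM2B, the p53-inducible ribonucleotide reductase subunit, was above background with vector only, at 134.1 and 126.4.

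Cell death targets held 4 higher genes among 24 measured (16.7%, beside 1.67% of all genes), with a median of 0.41. TP53I3, also called PIG3, encodes a quinone oxidoreductase linked to oxidative stress in p53-dependent death. Its signal was 215.6 ± 7.19 (19 beads) with vector, 2747 ± 80.1 (30 beads) with p53 wild type and 1586 with K24R. Both p53 arrays were several-fold above vector, and the fold for p53 wild type was 22.2 (19.5 to 25.2). CYFIP2, a subunit of the actin-regulating WAVE complex and a p53 target in cell death, gave 245.2, 1702 and 724. That was 10.8-fold higher with p53 wild type (9.89 to 11.8). BAX, which opens the outer mitochondrial membrane, gave 545.3, 1267 and 707.4, a fold of 2.65 (2.33 to 3.01). A second BAX probe gave 139.8, 206.1 and 158.5 and a fold of 2.63. LRDD, now PIDD1, the scaffold that activates caspase-2, was 2.31-fold higher at dim signals of 136 and 185.8.

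The death receptors lay above 0 where they were above background. TNFRSF10B, the TRAIL receptor DR5, had signals of 1614, 2759 and 1920 with vector, p53 wild type and K24R, a fold of 1.71 (1.54 to 1.89) for p53 wild type. A second, dimmer TNFRSF10B probe gave 174.3, 273.1 and 204.9 and a fold of 2.43, and another was at least 1.25-fold higher. TNFRSF10A, the receptor DR4, gave 247.7 and 303.5, and its bead interval of 1.08 to 2.07 was wide. FAS, by 2 probes, and PMAIP1, the BH3-only protein Noxa, by 2 probes, were not above background. BBC3, the BH3-only protein Puma, had 168.7 with vector, 156.1 with p53 wild type and 176.4 with K24R, and its interval included no difference. ZMAT3, an RNA-binding zinc finger protein, was bright, at 6873, 9413 and 11407, with K24R the brightest. Its fold for p53 wild type was 1.33 by this probe and 2.31 by a dimmer one.

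Metabolism and autophagy targets held 4 higher genes among 24 (16.7%, beside 1.67% of all genes), with a median of 0.38. GDF15, a secreted cytokine of the TGF-beta superfamily that is filed with this list, was the gene of largest difference on the array. Its signal was 234.1 ± 6.06 (25 beads) with vector, 9508 ± 270.0 (26 beads) with p53 wild type and 4365 with K24R. On the log2 scale these were 7.07, 13.17 and 12.10, so both p53 arrays lay far above vector, and the fold for p53 wild type was 68.9 (62.3 to 76.2). FDXR, the mitochondrial ferredoxin reductase, was not above background with vector, at 121.2, and gave 232.6 ± 21.8 (11 beads) with p53 wild type and 147.6 with K24R. It was at least 3.64-fold higher by this probe and at least 1.90-fold by the second. RPS27L, a ribosomal-protein-like regulator of MDM2 and p53, gave 1293, 3751 and 2271, a fold of 3.04 (2.80 to 3.30). CMBL, a hydrolase, was 2.48-fold higher. SAT1, the rate-limiting enzyme of polyamine catabolism, came close to the limit at 1.98-fold, with signals of 3715 and 7441. PRKAB1, an AMPK subunit, was 1.92-fold, FUCA1, a lysosomal fucosidase, 1.86-fold, and SCO2, a cytochrome oxidase assembly factor, 1.18-fold higher. C12ORF5, the fructose bisphosphatase TIGAR, had 235.3 and 243.3, and GLS2, the mitochondrial glutaminase, was not above background. LPIN1, a phosphatidate phosphatase, was 1.80-fold lower, with 404.6 with vector, 253.5 with p53 wild type and 401.5 with K24R.

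Receptor, adhesion and secreted targets held 6 higher genes among 26 (23.1%, beside 1.67% of all genes). Their median of 0.65 was the highest of the 5 target lists. IGFBP3, which binds insulin-like growth factors outside the cell, gave 162.2, 360.6 and 346.1 with vector, p53 wild type and K24R. The fold for p53 wild type was 4.20 (3.23 to 5.46), and a second probe gave 3.12. PLXNB2, a semaphorin receptor, gave 286.8 (9 beads), 621 and 418.6, a fold of 2.89 (2.27 to 3.68). EFNB1, an ephrin, was not above background with vector and gave 218.1 and 213.4 with the p53 forms, at least 3.27-fold higher. LGALS7 and LGALS7B encode galectin-7 in near-identical copies that their probes may not tell apart. They gave 389.4 and 365.9 with p53 wild type, 443.2 and 459.9 with K24R and no signal above background with vector, at least 7.58-fold and 6.99-fold higher with p53 wild type. TP53TG1, a noncoding RNA named for its induction by p53, was 2.03-fold higher at dim signals. NOTCH1, HBEGF and KRT8 were 1.69-fold, 1.68-fold and 1.65-fold higher. EGFR and MET, growth factor receptors, lay at −0.27 and −0.50. The angiogenesis inhibitor THBS1 and SERPINB5, the serpin maspin, were not above background.

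Beyond the target lists, the 20 genes of largest difference included several that were dim or undetected with vector and well above background with p53. DPYSL4, a dihydropyrimidinase-related protein, gave 116.5 with vector, 587.3 with p53 wild type and 482.3 with K24R. It was not above background with vector and at least 12.4-fold higher with p53 wild type. FGFR3, a fibroblast growth factor receptor, gave 136.1, 553.1 and 870.6, 11.0-fold higher with p53 wild type (8.53 to 14.3) and brightest with K24R. RRAD, a small GTPase that inhibits calcium channels, gave 173.6, 876.4 and 491.9, a fold of 10.2 (8.0 to 13.1), and its second probe was at least 14.7-fold higher. HES6, a helix-loop-helix relative of the Notch-responsive HES factors, gave 640.7, 3538 and 2586, a fold of 6.30 (5.78 to 6.87).

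CRYAB, the small heat shock protein alpha B-crystallin, gave 108.2 with vector, 474.2 with p53 wild type and 296.8 with K24R, at least 9.62-fold higher. SUSD2, LCN15 and the entry LOC728910 were also without a signal above background with vector and were at least 5.41-fold, 5.64-fold and 4.74-fold higher. SUSD2 and LOC728910 were brighter still with K24R, at 503.5 and 367.9. CTSH, the lysosomal protease cathepsin H, gave 169.6, 440 and 497.9, a fold of 4.91 (3.97 to 6.08). SLC6A10P, a pseudogene of the creatine transporter, gave 203.4, 626.4 and 1065, a fold of 5.16, and may share signal with the transporter gene. FBXO2, the sugar-binding F-box protein of a ubiquitin ligase, gave 144.1, 316.5 and 190.4, a fold of 4.73 (3.93 to 5.68).

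Genes of G2 and mitosis, which run chromosome segregation and cell division, lay below vector with p53 wild type. Of 40 measured, 13 were at least 2-fold lower and 0 higher, beside 1.3% and 1.67% of all genes. All 40 lay below 0, beside 47.5% of all genes, and their median was −0.80. In these bulk samples, fewer cells in a phase and less RNA per cell cannot be told apart. Every measured member of the list was also below 0 under each alternative processing that was run, while the number past 2-fold was 6 without background correction and 6 in the authors' scaled values. MKI67 and CENPE were not above background.

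ECT2, the exchange factor that positions the cleavage furrow, had a signal of 402.9 ± 15.3 (27 beads) with vector, 170.2 ± 7.21 (24 beads) with p53 wild type and 244.8 with K24R. It was 3.74-fold lower with p53 wild type (3.02 to 4.62), and K24R lay between. TOP2A, the topoisomerase that untangles chromosomes, gave 685.3, 246.5 and 447, 3.56-fold lower (3.12 to 4.06). DLGAP5, a spindle protein, gave 308.5, 150.1 and 235.1, 3.50-fold lower, and its second probe was 3.06-fold lower. NEK2, a centrosome kinase, gave 378.9, 177.8 and 344, 3.11-fold lower, and its second probe was at least 1.24-fold lower. For NEK2 the K24R array was close to vector. HMMR, a spindle and hyaluronan-binding protein, was 3.09-fold lower, and TTK, the spindle checkpoint kinase MPS1, 2.83-fold lower. NDC80 of the kinetochore, CEP55 and ANLN of the cleavage furrow, NUSAP1, BUB1, KIF23 and cyclin B1, CCNB1, were 2.20-fold to 2.73-fold lower.

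The other 27 were not called. KIF11, a spindle motor above background with vector only, was at least 1.68-fold lower and lay at −1.47 by its measured levels, so it is undecided. CCNB2, cyclin B2, gave 3667 with vector, 2071 with p53 wild type and 2892 with K24R, 1.87-fold lower. CDC2, the mitotic kinase CDK1, gave 686.5, 411.3 and 532.6, 1.76-fold lower, and CDC25C, its activating phosphatase, was 1.93-fold lower. AURKA, PLK1 and AURKB, mitotic kinases, were 1.77-fold, 1.27-fold and 1.46-fold lower. FOXM1, a transcription factor of mitotic genes, was 1.59-fold lower. CDC20, the activator of the anaphase-promoting complex, gave 12671 with vector and 10089.5 with p53 wild type, and PTTG1, the separase inhibitor securin, gave 11234 and 7932.

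**Figure D3:**
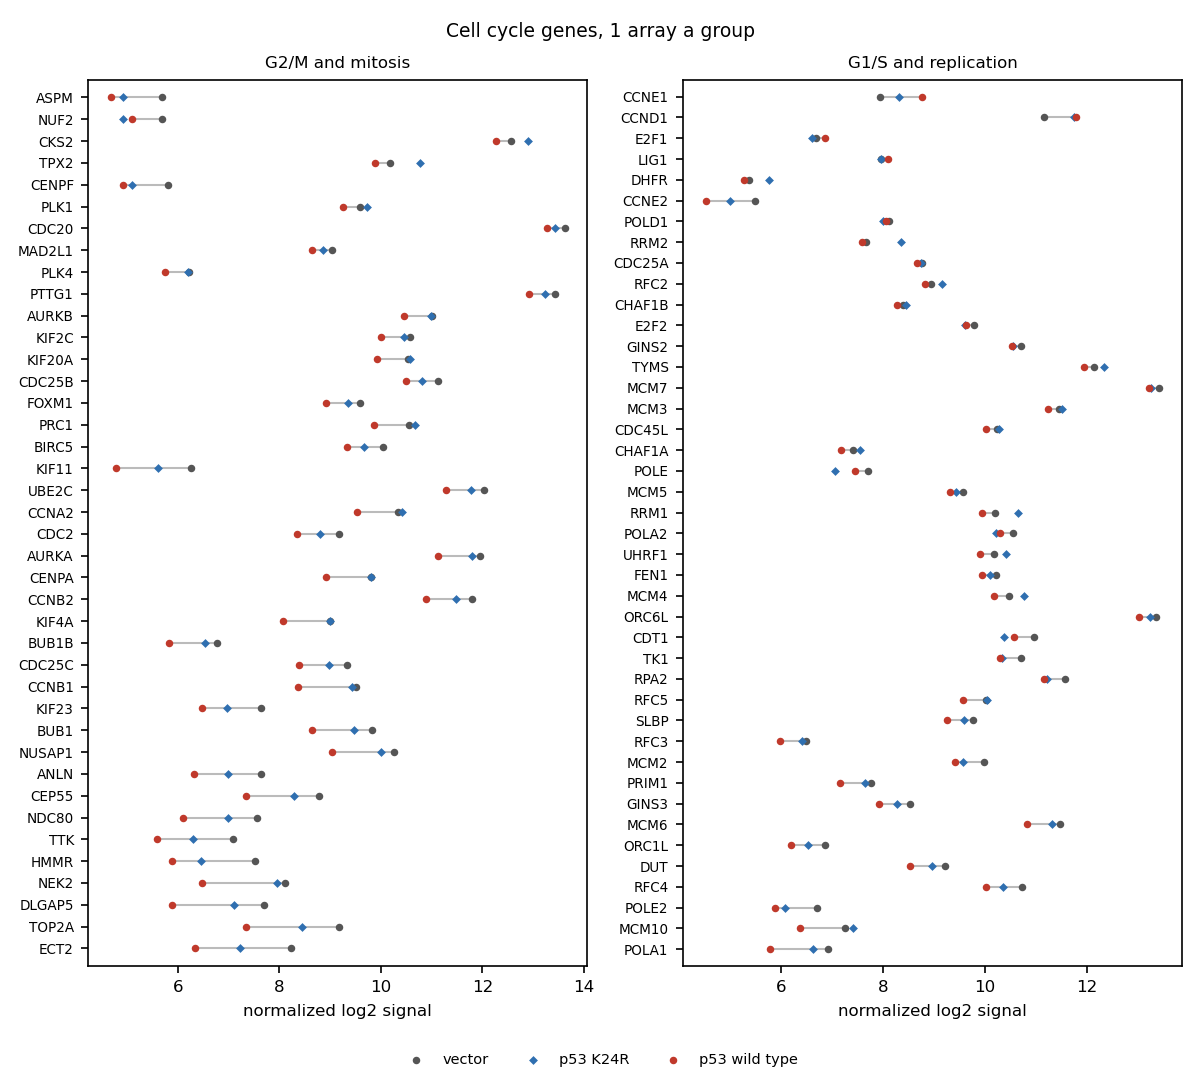
Normalized log2 signal of 40 G2 and mitosis genes (left) and 42 G1/S and replication genes (right) with vector, p53 K24R and p53 wild type, 1 array each, ordered by the difference between p53 wild type and vector. On the left every red point lies left of its grey vector point and 13 are at least 2-fold lower; on the right POLA1 is called 2-fold lower and the median is −0.26.

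G1/S and replication genes showed smaller differences. Of 42 measured, 1 was 2-fold lower, beside 1.3% of all genes, 36 lay below 0, beside 47.5% of all genes, and the median was −0.26. That 1 gene was POLA1, the catalytic subunit of polymerase alpha, at 220.7, 146.6 and 194.4 with vector, p53 wild type and K24R, 2.22-fold lower (1.79 to 2.77). MCM10, a replication initiation factor, gave 253, 171.8 and 266.4, 1.85-fold lower. POLE2 and RFC4 were 1.77-fold and 1.62-fold lower. In the other direction, CCNE1, cyclin E1, gave 347.9, 519.8 and 412.7, 1.77-fold higher with p53 wild type, with 2.57 and 1.56 by its other probes. Of 22 genes of homologous recombination and the damage checkpoint, 18 lay below 0 and 1 was 2-fold lower, beside 47.5% and 1.3% of all genes. FANCI, of the Fanconi anaemia pathway, was 2.58-fold lower at 233.3 and 144.2, while RAD51AP1, TOPBP1 and FANCD2 were 1.84-fold, 1.75-fold and 1.59-fold lower. Of the 11 measured CDK inhibitors and RB family genes, CDKN1A was called, as higher, beside 1.67% of all genes. CDKN2B, above background with vector only, was at least 1.76-fold lower and lay at −1.05 by its measured levels, so it is undecided. CDKN3 was 1.59-fold lower, and RB1 and RBL1 were not above background.

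The other genes of largest negative difference were of mixed function. CKAP2L, a spindle protein, gave 280 with vector and 135.3 with p53 wild type, where it was not above background, and was at least 3.91-fold lower. SLC38A2, a transporter of neutral amino acids, gave 1406 ± 48.5 (29 beads), 422.8 ± 15.1 (23 beads) and 733.6 with vector, p53 wild type and K24R. It was 3.84-fold lower with p53 wild type (3.42 to 4.31), and K24R lay between the others. NCAPG, a condensin subunit, gave 468.3, 197.6 and 351.3, 3.30-fold lower. STIL, of centriole duplication, was 3.18-fold lower, and PCM1, of centriolar satellites, at least 3.23-fold lower by 1 probe and at least 1.41-fold by the other. PHF15, ZBTB9, GPR19, SLC4A7, TMEM194, FAM111A, HYLS1, ANKIB1 and KIAA1712 filled the rest of the 20, at 2.79-fold to 3.33-fold lower.

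Of 16 BCL2 family genes measured, 10 lay above 0 (62.5%, beside 48.0% of all genes) and 6 below. BAX, described above, was the 1 gene of 16 called, beside 1.67% of all genes, and the median was 0.43. BIK, a BH3-only protein above background with p53 wild type only, was at least 1.33-fold higher and is undecided. BAK1, the other pore-forming protein, gave 225.2 with vector, 310.5 with p53 wild type and 278.3 with K24R, 1.81-fold higher. BCL2L11, the BH3-only protein Bim, was 1.72-fold higher by its brightest probe and 1.12-fold by a second, while another was 1.10-fold lower. HRK, also a BH3-only protein, was 1.54-fold higher. The survival genes differed in direction. BCL2L1, which encodes BCL-XL, gave 2608, 3567 and 2690, while MCL1 gave 956.7, 709.4 and 957. BCL2 itself was not above background. Of 17 caspase, apoptosome and inhibitor genes, 0 were 2-fold higher and 1 was lower, beside 1.67% and 1.3% of all genes. It was BIRC2, the inhibitor of apoptosis cIAP1, at 220.5, 140.3 and 188.3 with vector, p53 wild type and K24R, 2.57-fold lower (1.97 to 3.37), and its second probe was at least 1.02-fold lower. FADD, the adaptor of death receptors, gave 760.9, 410.2 and 469.5.

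Histone genes, which encode the proteins that package DNA, lay mostly above 0 (13 of 16, beside 48.0% of all genes). Of 16 measured, 6 were at least 2-fold higher, beside 1.67% of all genes, 0 were lower, and the median was 0.55. Most replication-dependent histone messages end in a stem-loop in place of a poly(A) tail, while variant histone messages carry a tail. HIST1H3D gave 145.1 with vector, 339.7 with p53 wild type and 179.3 with K24R, a fold of 5.06 (4.10 to 6.24). HIST1H2BD gave 955.2, 2980 and 1205, a fold of 3.32 (2.89 to 3.82). In both, K24R was nearer to vector than to p53 wild type. HIST2H2AA3, a near-identical copy of HIST2H2AA4 whose signal may be shared, gave 704.4, 2107 and 880.6, a fold of 3.26. A second HIST2H2AA3 probe gave 559.4, 1836 and 1229.5, a fold of 3.74, and there K24R was nearer to p53 wild type. HIST1H1C, a linker histone, gave 2116, 4616 and 2225, a fold of 2.16 (1.93 to 2.42). HIST2H2AC and HIST2H2BE were 2.67-fold and 2.03-fold higher. HIST1H4C gave 22851, 20336 and 22337, and the variants H2AFZ and H3F3B were 1.22-fold and 1.74-fold lower.

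**Figure D4:**
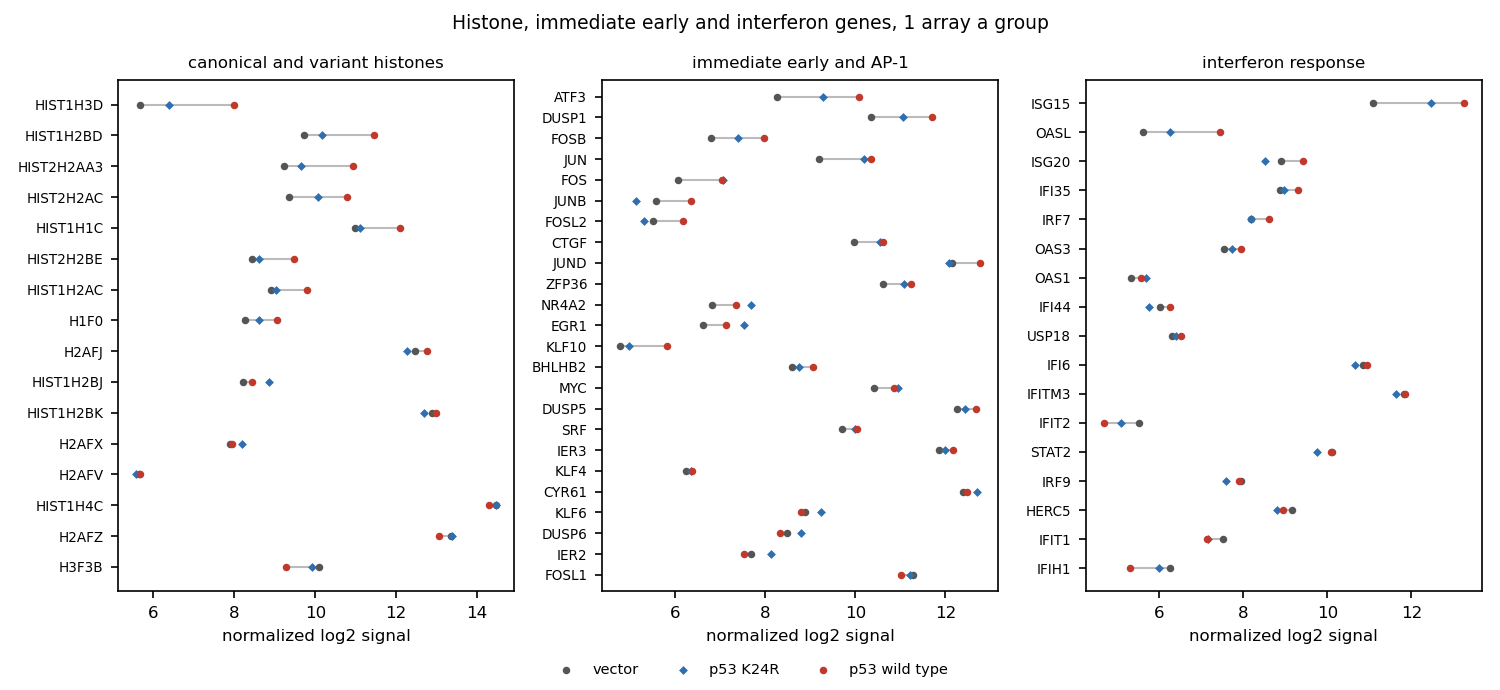
Normalized log2 signal of 16 histone genes, 24 immediate early and AP-1 genes and 17 of the 18 interferon-response genes with vector, p53 K24R and p53 wild type, 1 array each, ordered by the difference between p53 wild type and vector. Of the histones 6 are at least 2-fold higher with p53 wild type, of the immediate early genes 4, and of the interferon genes ISG15 and OASL.

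Immediate early and AP-1 genes, which answer growth factors and stress within minutes to hours, held 4 higher genes among 24, beside 1.67% of all genes, with a median of 0.50. ATF3, a stress transcription factor, gave 410.7 with vector, 1189 with p53 wild type and 710.3 with K24R, a fold of 3.53 (3.15 to 3.95). DUSP1, a MAP kinase phosphatase, gave 1406, 3492 and 2169, a fold of 2.55 (2.29 to 2.83). JUN gave 695.4, 1413 and 1240, a fold of 2.22, and FOSB was 2.25-fold higher. FOS, at 1.97-fold, came close to the limit, while FOSL1 and IER2 lay at −0.26 and −0.15. ATF3 and SESN2 were the 2 of 22 ER stress and ATF4 target genes called, both higher, beside 1.67% of all genes. DDIT3, the ER stress factor CHOP, gave 376.9, 579.9 and 394.8, 1.79-fold higher. Of 15 heat shock genes, CRYAB was called, as higher, beside 1.67% of all genes. HSPA1A and HSPA1B, near-identical HSP70 genes whose probes may share signal, were 1.43-fold and 1.72-fold higher, and HSPH1, a cochaperone, was 1.90-fold lower.

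Of 18 interferon-response genes measured, 2 were past 2-fold, which is 11.1% beside 1.67% of all genes, and the median was 0.16. ISG15, a ubiquitin-like modifier, gave 2298 ± 86.9 (26 beads) with vector, 9926 ± 301.2 (22 beads) with p53 wild type and 5539 with K24R. The fold was 4.45 (4.03 to 4.91), and K24R lay between the others. OASL, which enhances RNA sensing, gave 143.2, 258.1 and 172.1, a fold of 3.56 (3.0 to 4.23). IFIT1 and IFIH1, typical interferon-induced genes, were 1.31-fold and at least 1.68-fold lower, and 14 members of the list, MX1, IFIT3 and IFI44L among them, were not above background. Of 18 NF-kB subunit and target genes, the cytokine IL32 was past 2-fold, beside 1.67% of all genes. IL32 gave 493.7, 882.6 and 645.6 with vector, p53 wild type and K24R, a fold of 2.03 (1.83 to 2.25), with 1.5 by a second probe.

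In the metabolic lists 2-fold differences were few, as they were among all genes, of which 1.67% were higher and 1.3% lower. The 22 glycolysis genes held none, with a median of 0.21 and hexokinases HK1 and HK2 at 1.60-fold and 1.55-fold higher. The 12 serine and one-carbon genes, with a median of −0.11, and the 18 NRF2 and oxidative stress genes, with a median of 0.02, held none either. HMOX1, heme oxygenase, was the highest of these, at 1.72-fold. Of 22 cholesterol genes, 1 was past 2-fold, in the lower direction, and the median was −0.22. HMGCS1, an early enzyme of cholesterol synthesis, was 1.38-fold lower. Of the 23 lysosome genes, 18 lay above 0, beside 48.0% of all genes, and their median was 0.24. None was past 2-fold, and NEU1, a sialidase, was 1.79-fold higher. Of 16 TGF-beta target and matrix genes, ACTA2, smooth muscle actin, gave 848.3, 3467 and 1442 with vector, p53 wild type and K24R, 4.43-fold higher (3.99 to 4.91). None of 25 housekeeping genes was called at 2-fold, and TFRC, the transferrin receptor, differed most, at 1.64-fold lower.

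**Figure D5:**
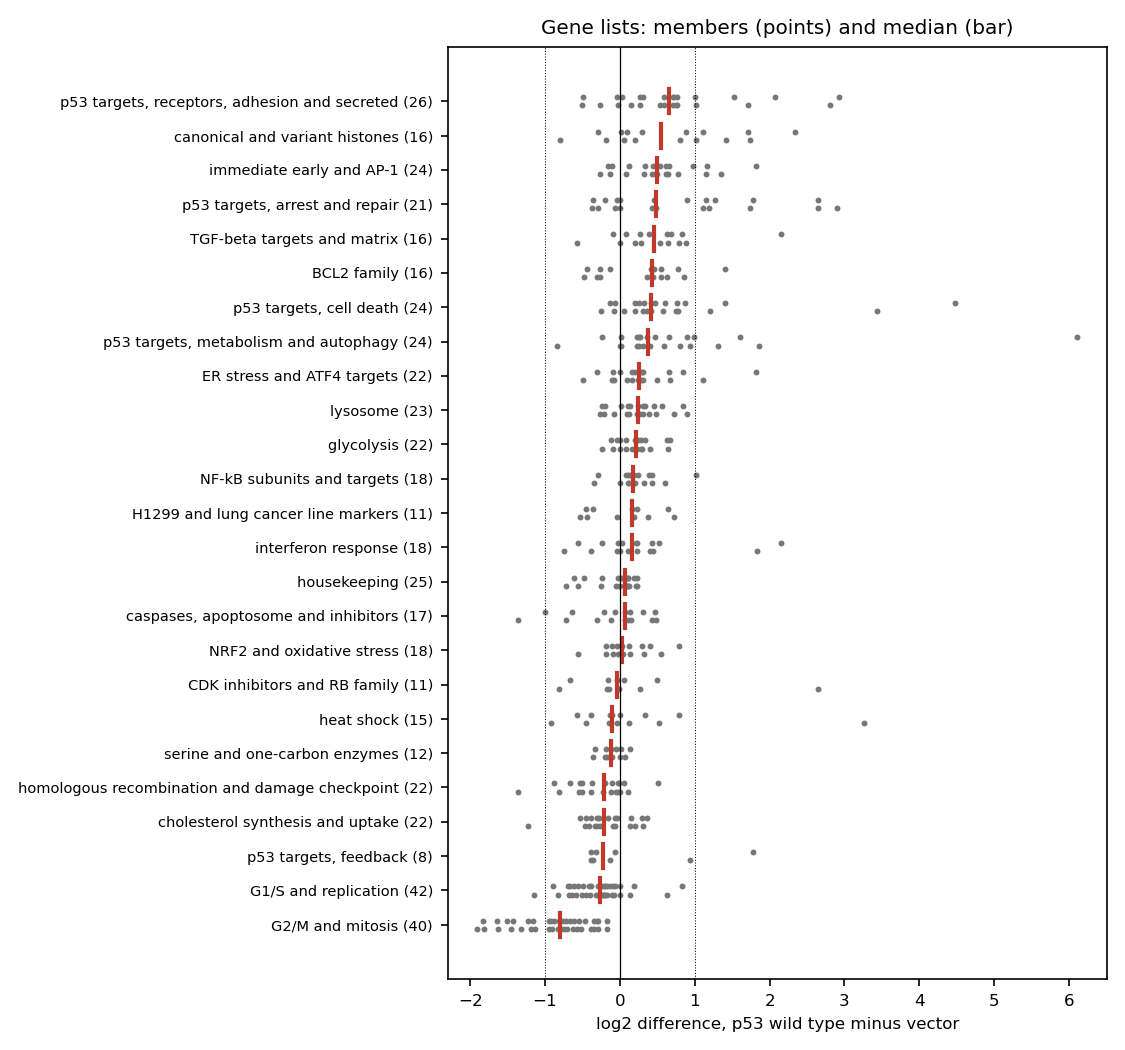
Differences on the log2 scale between p53 wild type and vector for the measured genes of each list with 8 or more of them, with the number of genes in brackets. Each point is a gene, each bar the median of its list, and dotted lines mark 2-fold; G2 and mitosis genes have the lowest median, −0.80, and receptor, adhesion and secreted p53 targets the highest, 0.65.

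Markers of other cell types were few. Of 12 T and B cell markers, CD79A and CD79B were above background, and the summed signal of the pair was 295.4 with vector and 406.1 with p53 wild type. CD79B, part of the B cell receptor, was dim, at 133.7, 225.4 and 188.4 with vector, p53 wild type and K24R, and at least 3.46-fold higher, with at least 1.58 by a second probe. The T cell marker CD3E, the B cell marker MS4A1 and the leukocyte marker PTPRC were not above background. Of 13 macrophage and granulocyte markers, 4 were above background, with summed signals of 5567 and 6184, most of it from CD68, a lysosomal protein that other cells also make. CD14, CSF1R and LYZ were not above background. None of 11 endothelial and erythroid markers was above background, and of 11 fibroblast, liver and neuron markers MBP and ALB were, at summed signals of 417.8 and 353.2. Their part in the results was not tested.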

How the data were processed

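RNA of H1299 cells with vector, p53 wild type or p53 K24R was read on 1 human Illumina array each; the number of cultures behind an array is not given in the sources used here. Per the file headers, the deposited human table gives, for 47323 probes, a linear intensity averaged over beads, with its standard error, a detection p-value and how many beads were read. The authors' series matrix holds the same intensity values, averaged over a gene's probes and multiplied by 1 constant per array (1.02, 1.01 and 1.06), with medians of 117.5, 118.5 and 123.5; how the constants were chosen is not given in the sources used here. Neither table is background-subtracted or centred.

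Signals were background-corrected with neqc (limma 3.58.1, R 4.3.3, offset 16, background estimated from the detection p-values), quantile-normalized over the 3 human arrays and taken to log2. The offset pulls folds of dim genes towards 1. Probes under a detection p of 0.01 on either array were kept (14451), 54 probes whose names had been turned into dates were left out, and 2247 genes had several probes. Median bead numbers were 21, 21 and 22. With 1 array a group no p-value was computed, and called means at least 2-fold.

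Members of the 5 p53 target lists were named, with up to 5 genes of each other list, the 20 largest differences each way and the 10 brightest genes. A gene of any other kind, such as further mitotic, histone, survival, caspase, immediate early and interferon genes, marker genes, the genes nearest the 2-fold limit and genes named as not above background, was chosen after its values were seen. The members and all 29 lists were chosen with earlier results of these data known. Symbols are those of the file, some of them old. K24R is given as a level beside the others because its comparison would share the vector array. Values of some genes are not reported here.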

Additional observations from a re-analysis of the deposited data

How the results depend on the processing

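The counts of genes past 2-fold depended on how dim signals were treated. In place of 196 higher and 153 lower genes there were 59 and 17 without background correction and 102 and 46 with an offset of 50. The authors' scaled values gave 49 and 20. With measured levels in place of the bound for dim signals there were 347 and 294, an alternative chosen after seeing the data. Dropping the detection filter as well as the bound gave 355 and 293, so these counts do not show the filter's part alone. In the first 3 settings all higher and lower genes were among the 196 and 153, and 77.6%, 68.9% and 71% of the calls were higher genes. The cause of this shift was not tested. Median scaling gave 209 and 171, normalizing vector and p53 wild type alone 195 and 162, detection on both arrays 144 and 129, and the mean of a gene's probes 188 and 130. The median of the p53 targets ranged from 0.26 to 0.52 and that of the G2 and mitosis genes from −0.89 to −0.68, and 0 named genes that were past 2-fold turned direction. Of 74 such genes, 44 stayed past 2-fold without background correction and 40 in the authors' values. No paired analysis was possible because each group had 1 array and no test was run. Signal over background limits the dim genes, for which only a bound was available.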

Other observations

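Genes outside the lists were looked at by theme after their values were seen, so each theme below is a description of picked genes. The Notch receptor NOTCH3 gave signals of 318.7 with vector and 732.5 with p53 wild type, 3.0-fold higher, and the Notch ligand JAG2 gave 176.9 and 280, 2.44-fold higher. The entries for U3 small nucleolar RNA, which guides ribosomal RNA processing, were also higher with p53 wild type. SNORD3A, SNORD3C and SNORD3D were 2.59-fold, 2.60-fold and 2.85-fold higher, and such near-identical copies may share signal. LCE1B and LCE1C of the cornified envelope and the hair keratin-associated KRTAP2-1 were not above background with vector and were at least 3.75-fold, 2.62-fold and 2.90-fold higher. More histone entries were higher as well, HIST1H2BG at 4.35-fold and HIST2H2AA4 at 3.05-fold among them. AEN and ISG20L1, array entries of a p53-inducible nuclease, were 2.30-fold and 2.08-fold higher.

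Among the lower genes were further parts of the chromosome machinery. RAD21, a cohesin subunit, gave 662.2 and 305.4 with vector and p53 wild type, 2.49-fold lower, and STAG2, another, was at least 2.06-fold lower. SMC4 of condensin was 2.07-fold lower. At the kinetochore, KNTC1, ZWILCH, SKA1, MIS12 and the centromere protector SGOL1 were 2.10-fold to 2.62-fold lower, KNTC1 by a bound. A second SGOL1 probe, nearly as bright at 213.8 and 161.3, was 1.61-fold lower and so under the limit. CCNF, cyclin F, gave 1830 and 841.5, 2.30-fold lower. CKAP5, a microtubule polymerase, gave 1185 and 580.6, 2.19-fold lower, with at least 1.16 by a dimmer second probe. Polycomb genes BMI1 and SUZ12 were 2.46-fold and 2.19-fold lower. DTL, the adaptor of a ubiquitin ligase that degrades CDT1 and p21, was above background with vector, at 215.2, and not with p53 wild type, at 121.8, and was at least 2.55-fold lower.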
